A study of Homo sapiens with 6 samples.

Results

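LIPH and 9 further genes of lysophosphatidic acid (LPA) signalling were examined in sorted fractions of HCT116, a long-established cell line from a human colorectal carcinoma. The 10 genes were listed by name: LIPH, ENPP2, the receptor genes LPAR1, LPAR2, LPAR3, LPAR5 and LPAR6, and the phosphatase genes PLPP1, PLPP2 and PLPP3. The list was chosen by the difference of LIPH between the fractions, which had passed the threshold in an earlier fit of these data, so the values of this contrast are a description here. For 9 of the 10 genes, out of 18404 genes with a probe set of their own, 1 probe set carried that single symbol, and LPAR5 was not analysed here.

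CD133+ and CD133- cells were sorted from the same line by CD133, a membrane glycoprotein often used to select cells that start tumours, and 3 repetitions of each gave 6 arrays. The labels give neither fraction any other treatment, and both come from 1 cell line. Whether the repetitions were separate cultures is not stated in the labels, so p-values cover only the spread between these arrays, and that may be technical. Signals are log2 values from Robust Multichip Average (RMA), and every difference is CD133-positive minus CD133-negative.

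LPA is a signalling phospholipid made outside the cell along separate routes. LIPH is a membrane-associated phospholipase that cleaves phosphatidic acid to LPA, and ENPP2 (autotaxin) is a secreted enzyme that makes LPA from lysophosphatidylcholine. LPAR1, LPAR2 and LPAR3 are receptors of the EDG family, whereas LPAR5 and LPAR6 belong to a more distant group related to purinergic receptors, and all couple to G proteins. PLPP1, PLPP2 and PLPP3 are membrane phosphatases that remove the phosphate from LPA and related lipids. In hair follicles, LPA made by LIPH acts through LPAR6, and loss of either human gene causes hair loss. In colon carcinoma lines LPA is known as a stimulus of growth and migration.

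The promoter of LIPH is shown because LIPH was the member with the largest difference. That of LPAR6 is shown because this receptor is tied to LIPH, and that of DPP4 because its pattern over the arrays was most like that of LIPH. Each is the 250 bases before the gene's start, from RefSeq on GRCh38.p14, minus strand, written 5′ to 3′. The LIPH window lies at chr3:185552589-185552838, LPAR6 at chr13:48413114-48413363 and DPP4 at chr2:162074216-162074465. Capitals mark matches on either strand to AGGAAGT, a core bound by ETS factors, and to TTTATNG, a core bound by CDX factors of the gut.
LIPH: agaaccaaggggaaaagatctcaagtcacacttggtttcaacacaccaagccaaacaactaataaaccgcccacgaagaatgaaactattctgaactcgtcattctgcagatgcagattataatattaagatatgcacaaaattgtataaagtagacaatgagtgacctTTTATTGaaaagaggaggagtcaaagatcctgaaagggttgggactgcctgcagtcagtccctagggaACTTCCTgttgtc
LPAR6: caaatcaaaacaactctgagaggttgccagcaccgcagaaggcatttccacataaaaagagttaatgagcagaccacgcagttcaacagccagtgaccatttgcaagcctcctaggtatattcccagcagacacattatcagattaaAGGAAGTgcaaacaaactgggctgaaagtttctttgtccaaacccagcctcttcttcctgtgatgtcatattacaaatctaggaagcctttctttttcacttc
DPP4: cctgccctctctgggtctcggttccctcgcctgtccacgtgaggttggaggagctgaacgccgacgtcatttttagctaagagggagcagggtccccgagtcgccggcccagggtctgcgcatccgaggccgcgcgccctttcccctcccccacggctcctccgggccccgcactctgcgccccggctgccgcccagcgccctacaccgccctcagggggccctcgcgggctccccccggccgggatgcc
LIPH held the ETS core on the opposite strand, 13 to 7 bases before its start, and the CDX core 81 to 75 bases before it. LPAR6 held the ETS core 103 to 97 bases before its start, and DPP4 held neither. Of 35116 such windows in the RefSeq table, 7.01% held AGGAAGT and 8.93% held TTTATNG. Windows were found for 7 of the 9 measured members, not for ENPP2 and PLPP1, and of these 2 held AGGAAGT (LIPH and LPAR6), 1 held TTTATNG (LIPH) and 1, LPAR2, held TGANTCA, a core bound by AP-1 that 6.57% of windows held. GGAATG, a core bound by TEAD factors, was in 0 of these 7 genes' windows and in 11.9% of all windows. The motifs were chosen after the LIPH sequence was seen, none overlapped another in these windows, and a match is only a description of letters. The windows differed in composition, with 40.8% G and C in LIPH, 42.8% in LPAR6 and 73.6% in DPP4.

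Each difference was fitted with repetition as a block, because the rule for this gene set pairs the arrays by repetition number. Arrays with a common number correlated at 0.992 to 0.995 across 28230 probe sets, and arrays within a fraction at 0.984 to 0.992. PROM1, which encodes CD133, checks the labels: its difference was 2.77 (SE 0.16). Of 12 epithelial markers, 7 lay above the median probe set signal of 5.53 in both fractions, with means of 6.68 (CDX1) to 11.90 (KRT8) in CD133-positive and 6.76 to 12.14 in CD133-negative cells. The other 5 (LGALS4, CDH17, VIL1, KRT20 and GPA33) lay below it in both. Over the 12 the mean level was 7.45 to 7.50 on CD133-positive and 7.33 to 7.53 on CD133-negative arrays. Of 43 measured markers of epithelium, leukocytes, fibroblasts, endothelium and erythroid or platelet cells, 0 passed limma's adjusted threshold and 4 had an unadjusted p under 0.05. Of the 31 that are not epithelial, 22 were lower in CD133-positive cells. Mean levels of these 4 lists ran from 4.004 to 4.48 on CD133-positive and from 4.02 to 4.57 on CD133-negative arrays, and their part in the results below was not tested. In the order of these lists, the markers with the smallest unadjusted p were KRT18 at -0.48 and CDH1 at 0.40, CD68 at 0.22 and CD53 at -0.31, COL1A1 at -0.19 and COL3A1 at -0.21, ENG at -0.23 and PECAM1 at -0.12, and PPBP at -0.32 and AHSP at -0.14.

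LIPH was higher in CD133-positive cells. Its probe set (8092541) gave 7.34, 6.53 and 6.79 in repetitions 1, 2 and 3 of CD133-positive cells, against 6.38, 5.60 and 5.74 in CD133-negative cells. All 3 CD133-positive arrays lay above all 3 CD133-negative arrays, with a gap of 0.15 between the lowest of the one and the highest of the other. The mean of LIPH was 6.88 ± 0.41 over the CD133-positive arrays, against 5.91 ± 0.42 over the CD133-negative ones (SD, n = 3 each). The within-repetition differences were 0.95, 0.93 and 1.05, so the fraction difference was nearly the same size in every repetition although the level itself moved. The fitted difference was 0.98 (SE 0.081, 95% interval 0.78 to 1.17), or 1.97-fold. In cells measured in bulk, fewer cells with LIPH and less LIPH RNA per cell cannot be told apart.

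By size LIPH ranked 46 of 18404 genes in absolute difference, and 25 among the differences towards CD133-positive cells. In the fit used here, the limma adjusted p of LIPH over 28230 probe sets was 0.0203. LIPH was the 1 of 9 members past 0.05, where 0.298% of all probe sets passed. Since the list was built around a call of LIPH in an earlier fit of these data, nothing is read from that count. Just inside the threshold lay S100A14 at 1.16 and MB21D2 at -0.71 (limma adjusted p = 0.0470 and 0.0494), and just outside it NFIA at 0.63 and SYBU at 0.74 (0.0546 for both). The call ended with group as the only term (limma adjusted p = 0.968), a fit in which 0.00354% of probe sets passed, with the leading control rows of the table included (0.109), without repetition 2 (0.0701) and without repetition 3 (0.135). The difference itself lay between 0.94 and 1.00 in all 12 alternatives run on LIPH. The fit without the block, the control rows, the filters, the trended robust prior and the mean of probe sets cannot move it. Only the other alternatives bear on its size.

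**Figure D1:**
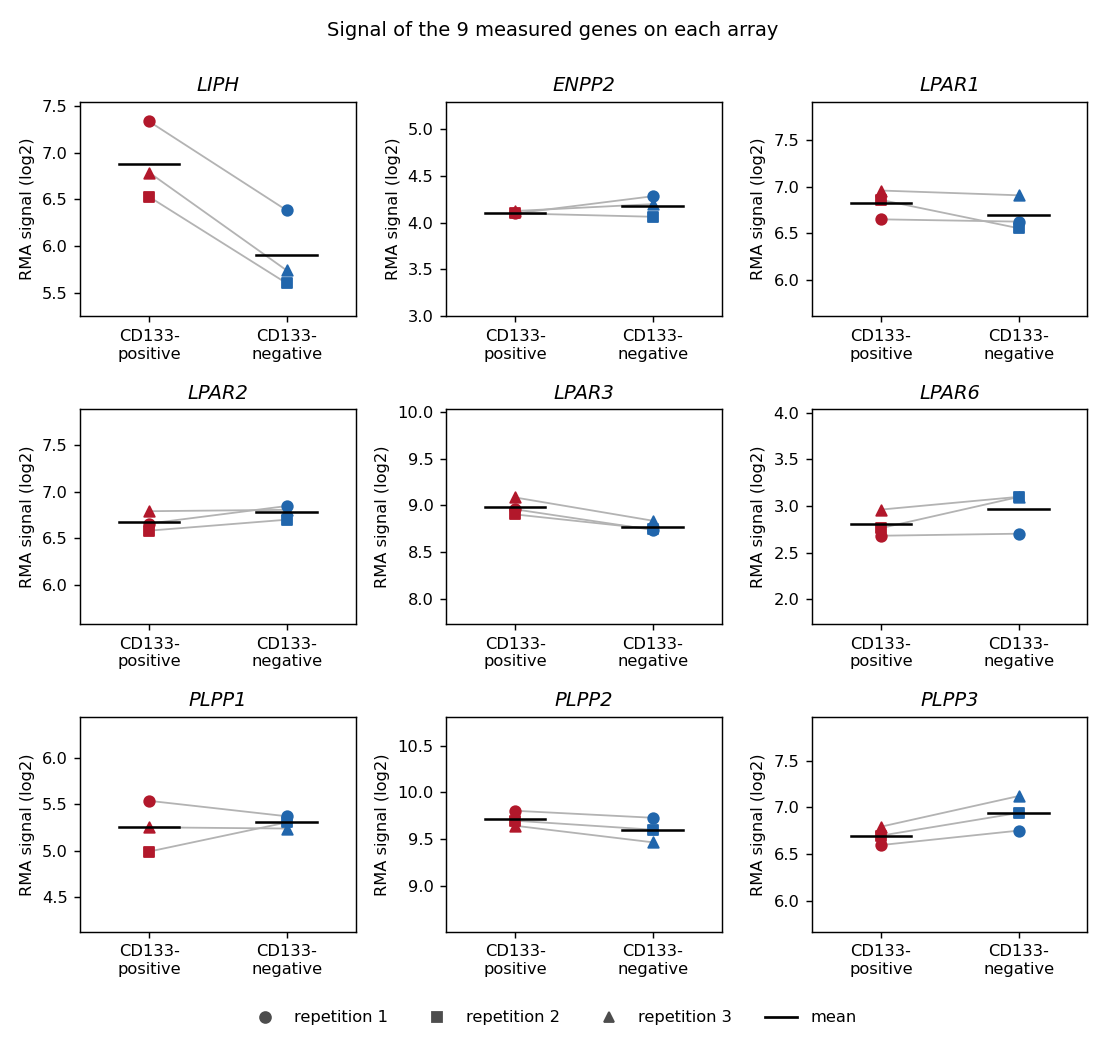
Log2 RMA signal (vertical axis, the same span of log2 units in each panel) of the 9 measured genes in CD133-positive (red, left) and CD133-negative cells (blue, right). Symbols are the 3 repetitions, grey lines join arrays of 1 repetition and black bars are means. LIPH has the steepest lines, from 3 red points at 6.53 to 7.34 to 3 blue points at 5.60 to 6.38.

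ENPP2, the other extracellular LPA-producing enzyme on the list, had a low signal. It gave 4.10, 4.10 and 4.12 in CD133-positive cells, against 4.28, 4.06 and 4.20 in CD133-negative cells. The fractions overlapped, and the CD133-positive arrays lay inside the range of the CD133-negative ones. Its fitted difference was -0.07 (95% interval -0.28 to 0.13), and its values were below 5.53, the median of the mean signals of all tested probe sets. The deposited values carry no detection call, so a low RMA signal does not tell low expression from none, which holds for LPAR6 and PLPP1 as well.

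Among the EDG-family receptors, LPAR3, which is selective for LPA with unsaturated acyl chains, was the one whose arrays separated. It gave 8.96, 8.90 and 9.08 in CD133-positive cells, against 8.73, 8.74 and 8.83 in CD133-negative cells, so every CD133-positive array was the higher, by a gap of 0.067. The differences within repetitions were 0.22, 0.16 and 0.25, and the fitted difference was 0.21 (SE 0.079, 95% interval 0.018 to 0.40), or 1.16-fold. LPAR3 missed the threshold over all probe sets (limma adjusted p = 0.402). LIPH and LPAR3 were the 2 of 9 members whose fractions did not overlap, against 7.95% of all genes, and the members were listed with this contrast known.

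LPAR1, the most widely expressed LPA receptor, gave 6.65, 6.86 and 6.96 in CD133-positive cells, against 6.63, 6.56 and 6.91 in CD133-negative cells. Its fractions overlapped, and repetition 2 held most of the difference (0.30, against 0.025 in repetition 1 and 0.051 in repetition 3). The fitted difference of LPAR1 was 0.13 (95% interval -0.10 to 0.35). LPAR2 gave 6.66, 6.58 and 6.79 in CD133-positive cells, against 6.85, 6.70 and 6.81 in CD133-negative cells. LPAR2, a receptor often reported as raised in colorectal tumours, thus lay lower in CD133-positive cells in each repetition by 0.19, 0.12 and 0.015, with overlapping fractions and a fitted difference of -0.11 (95% interval -0.31 to 0.09).

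LPAR6, the receptor that acts with LIPH in hair follicles, gave 2.68, 2.76 and 2.96 in CD133-positive cells, against 2.70, 3.10 and 3.10 in CD133-negative cells. The CD133-positive value was the lower one in each repetition, by 0.022, 0.33 and 0.14, and the fractions overlapped. Its fitted difference was -0.16 (95% interval -0.39 to 0.06), the opposite sign to LIPH.

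The phosphatase genes had no common sign. PLPP3 gave 6.60, 6.70 and 6.79 in CD133-positive cells, against 6.75, 6.94 and 7.12 in CD133-negative cells. PLPP3, which degrades extracellular LPA, was the lower in CD133-positive cells in every repetition, by 0.15, 0.24 and 0.33, although the highest CD133-positive array lay above the lowest CD133-negative one. Its fitted difference was -0.24 (SE 0.083, 95% interval -0.44 to -0.04), or 0.845-fold, and it missed the threshold (limma adjusted p = 0.360).

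PLPP2 gave 9.80, 9.70 and 9.64 in CD133-positive cells, against 9.73, 9.60 and 9.46 in CD133-negative cells. The CD133-positive value was the higher in each repetition and the fractions overlapped, with a fitted difference of 0.12 (95% interval -0.08 to 0.31). PLPP1 gave 5.54, 4.99 and 5.25 in CD133-positive cells, against 5.37, 5.30 and 5.24 in CD133-negative cells. Its CD133-positive arrays spread on both sides of the other fraction, and the differences within repetitions of 0.17, -0.31 and 0.013 had no common sign; the fitted difference was -0.04 (95% interval -0.31 to 0.22) and became 0.09 without repetition 2.

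**Figure D2:**
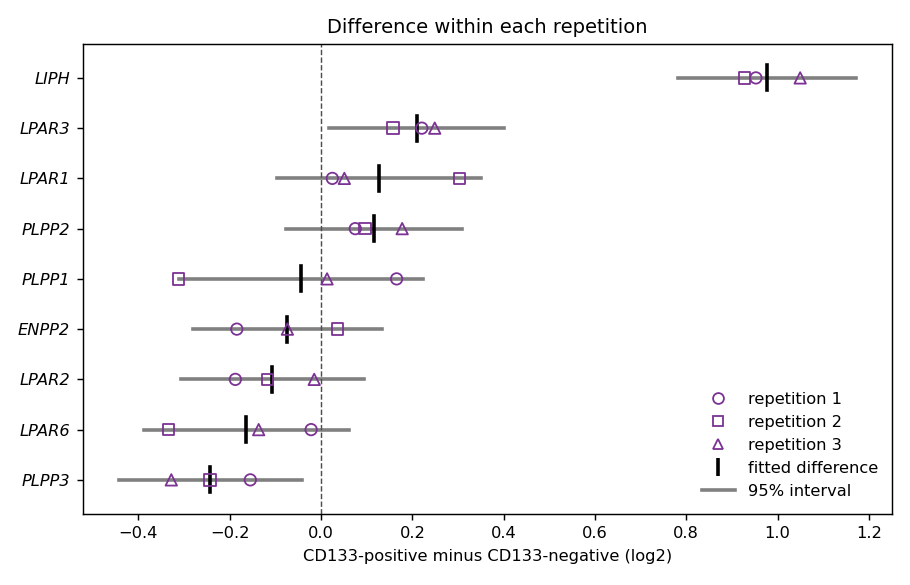
Difference in log2 RMA signal, CD133-positive minus CD133-negative (horizontal axis), for the 9 measured genes. Open symbols are single repetitions, black bars the limma estimates with repetition as a block and grey lines their 95% intervals. LIPH stands at 0.98, and the other 8 estimates lie between -0.24 and 0.21.

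Side by side, 4 of the 9 members were higher and 5 lower in CD133-positive cells, with a median difference of -0.04, against -0.0064 for all 18404 genes, of which 8817 were higher. The sign was the same in all 3 repetitions for 7 of 9 members, where 36.1% of all genes had a single sign, and again the members were chosen with this contrast known. The other 8 members had limma adjusted p values of 0.360 to 0.923. On the scale of the RMA signal, the highest upper bound of their intervals was 0.40 (LPAR3) and the lowest lower bound was -0.44 (PLPP3). For ENPP2, LPAR6 and PLPP1, whose signals were dim, these bounds limit the signal difference and not the difference in expression.

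A further question is how the members varied between repetitions over both fractions, a contrast that the choice of genes did not use directly. Its F-test shares the residual variance of the fraction test, and choosing LIPH by a fraction call can favour a small variance. The repetition result of LIPH is therefore a description as well. LIPH averaged 6.86 in repetition 1, 6.06 in repetition 2 and 6.26 in repetition 3, a span of 0.79 that comes close to the fraction difference. It was the 1 of 9 members past the threshold of the limma F-test for repetition (adjusted p = 0.0180), where 13.0% of all probe sets passed, so 1 of 9 is no result about the members as a set. The call ended without repetition 1 (limma adjusted p = 0.285), without repetition 2 (0.0729) and with the leading control rows included (0.0544). For the other 8 members the limma adjusted p for repetition was 0.159 to 0.697. PLPP3 averaged 6.67, 6.82 and 6.96 in repetitions 1, 2 and 3, and LPAR6, a dim probe set, 2.69, 2.93 and 3.03. Both were lowest in repetition 1, where LIPH was highest, as was LPAR1 (6.64). ENPP2 (4.19), PLPP1 (5.45) and PLPP2 (9.76) were highest in repetition 1 like LIPH, and LPAR2 and LPAR3 were highest in repetition 3.

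The genes whose pattern over the 6 arrays was most like that of LIPH were ranked by Pearson correlation among 946 genes with a mean above the median signal and a range of at least 1. The arrays share repetitions and fractions, so a high correlation means that a gene had both the fraction difference and the high values of repetition 1. DPP4, a cell surface peptidase, came first with r = 0.985 over 6 arrays. It gave 7.98, 7.03 and 6.91 in CD133-positive cells, against 6.66, 5.32 and 5.61 in CD133-negative cells, so that its fractions did not overlap and repetition 1 was highest in both.

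After DPP4 came NEO1, a receptor for netrin and repulsive guidance molecules (r = 0.983), and ADIRF, an adipogenesis regulatory factor (0.982). FRRS1, a ferric reductase, had 0.978, and CLDND1, a claudin-domain membrane protein, 0.976. DDX60L, a helicase-like gene of the interferon response, had 0.974, MYO1E, a class I myosin, 0.964, and SLC7A8, an amino acid transporter, 0.961. Their fraction differences ran from 0.55 (FRRS1) to 1.44 (DPP4), which is a description, since likeness to LIPH favours genes with such a difference. In their promoter windows, found for 7 of the 8, AGGAAGT was in 0 and TTTATNG in 1 (MYO1E).

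The most opposite patterns belonged to CRIM1, a membrane protein that binds BMPs (r = -0.987), and the cell cycle kinase gene CDK6 (-0.974). AMOTL2, an angiomotin-family gene (-0.968), and PRICKLE1, of planar cell polarity (-0.966), followed. CDK6 gave 6.69, 7.998 and 7.54 in CD133-positive cells, against 7.92, 9.19 and 8.51 in CD133-negative cells, so it was lowest in repetition 1 in both fractions. Among the members themselves, the correlation with LIPH over the 6 arrays was 0.81 for PLPP2, 0.68 for LPAR3, -0.77 for LPAR6 and -0.87 for PLPP3, and between -0.27 and 0.34 for ENPP2, LPAR1, LPAR2 and PLPP1. EHF, an epithelial ETS factor chosen after its values were seen, had r = 0.76 with LIPH and ranked 58 of the 946. It differed by 2.35 between fractions (limma adjusted p = 0.0123), and its limma adjusted p for repetition was 0.454. The part of EHF in the LIPH difference was not tested.

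**Figure D3:**
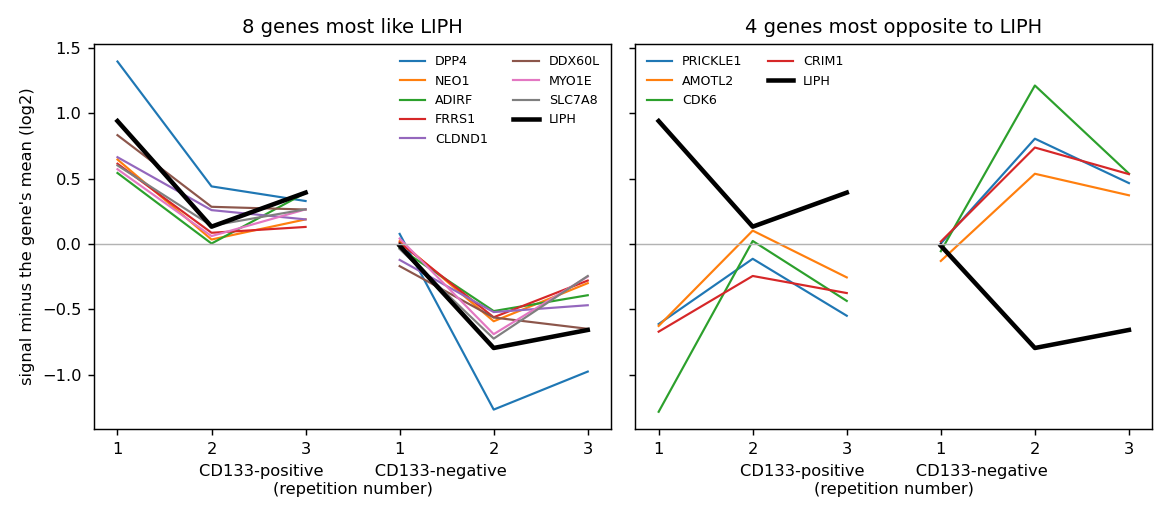
Signal minus each gene's own mean over 6 arrays (log2, vertical axis) for LIPH (black) with the 8 genes most like it (left) and the 4 most opposite (right). Arrays run along the horizontal axis by fraction and repetition number, and lines only join values of 1 gene. The like genes share the high CD133-positive repetition 1, and the opposite genes are lowest there.

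The wider pathway was described by 6 lists with 94 measured entries, in which LIPI and PLA1A stood in 2 lists each. CCN1 was the 1 gene of these lists past the threshold in the fit with repetition as a block, and it was lower in CD133-positive cells. In other fits CCN2, AMOTL2, GPAT3, MBOAT1 and EREG each passed in 4 of 12 alternatives and PLA2G4A in 2. With a mean of 5.47, PLA2G4A was removed by both filters on dim probe sets and was not tested there. The background is again 0.298% of probe sets past the threshold in either direction, and 11.3% at an unadjusted p under 0.05.

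Other enzymes linked to the making of LPA or its precursor phosphatidic acid had 11 of 22 members higher and 11 lower, a median difference of -0.0003 and 0 past the threshold (limma; 7 had an unadjusted p under 0.05). PLA2G4A, a cytosolic phospholipase A2 that releases arachidonic acid, gave 5.80, 5.62 and 5.81 in CD133-positive cells, against 5.33, 5.003 and 5.26 in CD133-negative cells. Its fractions did not overlap, and its difference was 0.54 (SE 0.081, limma adjusted p = 0.0798). GPAT3, which makes LPA inside the cell as the first step of glycerolipid synthesis, had a difference of 0.47 (limma adjusted p = 0.149), positive in each repetition at 0.63, 0.50 and 0.29. LIPI, the closest relative of LIPH and also a phosphatidic acid phospholipase, had signals of 2.20 to 2.34 in CD133-positive and 2.24 to 2.47 in CD133-negative cells.

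Lysophospholipid acyltransferases, lipid phosphatases and their relatives, the group that includes the enzymes removing LPA, had 10 of 19 measured members higher and 9 lower, a median of 0.0003 and 0 past the threshold (limma; 7 at an unadjusted p under 0.05). MBOAT1, a lysophospholipid acyltransferase, gave 7.20, 7.01 and 7.001 in CD133-positive cells, against 6.70, 6.66 and 6.21 in CD133-negative cells, a difference of 0.55 (limma adjusted p = 0.144) without overlap. ACP6, a mitochondrial LPA phosphatase, had a difference of 0.35 (limma adjusted p = 0.255).

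Other lysophospholipid receptors had 4 of 11 measured members higher and 7 lower, a median of -0.016, and 0 past the threshold (limma; 0 at an unadjusted p under 0.05). All 11 differences lay between -0.10 (GPR35) and 0.06 (LPAR4), the narrowest span of the 6 lists. Only 2 of the 11 had a mean above the median probe set signal, and RMA can shrink differences of dim signals. The narrow span therefore limits the signal differences and not the differences in expression. LPAR4, a further LPA receptor related to LPAR6, gave 3.00 to 3.12 in CD133-positive cells, against 2.92 to 3.05 in CD133-negative cells.

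The pancreatic lipase family, to which LIPH belongs, had 4 of 7 measured members higher and 3 lower, with 0 past the threshold (limma; 1 at an unadjusted p under 0.05) and a median of 0.0079. That median rests on dim probe sets: it was -0.11 without repetition 2, and under either filter on dim probe sets 1 gene, LIPG, remained. LIPG, an endothelial lipase acting on phospholipids, had a negative difference. It gave 6.64, 5.94 and 7.08 in CD133-positive cells, against 6.97, 6.20 and 7.89 in CD133-negative cells, a difference of -0.47 (limma adjusted p = 0.248). LIPG overlapped between fractions and differed between repetitions (limma F-test, adjusted p = 0.0167). PLA1A, a phosphatidylserine phospholipase, had a difference of -0.14 (limma adjusted p = 0.713).

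Early and other transcripts that LPA is known to induce had 5 of 22 measured members higher and 17 lower, and a median of -0.10. Past the threshold was 1, lower (limma; 7 at an unadjusted p under 0.05). CCN1, a matricellular protein whose gene is a known target of the coactivator YAP, gave 8.46, 8.53 and 8.38 in CD133-positive cells, against 9.31, 9.39 and 9.67 in CD133-negative cells. The fractions lay well apart, and CCN1 fell by 1.00 on the log2 scale (SE 0.11, limma adjusted p = 0.0381). That call ended with group as the only term (limma adjusted p = 0.154), with the leading control rows included (0.171), and without repetition 1 (0.0570), 2 (0.0953) or 3 (0.146).

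CCN2, the related matricellular gene, gave 6.87, 7.11 and 6.97 in CD133-positive cells, against 7.71, 8.94 and 8.24 in CD133-negative cells. Its difference of -1.31 was larger than that of CCN1 but varied more between repetitions, from -0.83 to -1.83 (limma adjusted p = 0.0637). AMOTL2 had a difference of -0.52 (limma adjusted p = 0.0916). Not every gene of this list fell. FOS, FOSB, EGR1 and SRF had differences of 0.045, 0.091, -0.058 and -0.053, without a common sign (limma adjusted p = 0.817 to 0.939). PTGS2 was higher by 0.27 without overlap (limma adjusted p = 0.355), and JUN differed by -0.36 (0.233). The mean of PTGS2, 4.68, lay below the median probe set signal, so it bounds the signal and not the expression. CCN2 and the genes FOS, FOSB, EGR1, SRF, PTGS2 and JUN were chosen after their values were seen.

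Genes of EGF receptor transactivation, a route in which LPA receptors activate ADAM17 to shed EGF-type ligands, had 8 of 13 measured members higher and 5 lower, a median of 0.05 and 0 past the threshold (limma; 4 at an unadjusted p under 0.05). EREG, encoding the ligand epiregulin, gave 10.90, 10.96 and 10.30 in CD133-positive cells, against 10.36, 10.25 and 9.29 in CD133-negative cells. The fractions overlapped, with repetition 3 low in both, and within repetitions the differences were 0.54, 0.71 and 1.01. The fitted difference of EREG was 0.76 (SE 0.11, limma adjusted p = 0.0717). BTC, encoding betacellulin, had a difference of 0.39 (limma adjusted p = 0.171), with a dim mean of 4.36, below the median probe set signal. HBEGF, encoding another ligand of the list and chosen after its values were seen, differed the other way by -0.29 (limma adjusted p = 0.410), with 0.0004, -0.47 and -0.40 in repetitions 1, 2 and 3. The list median was -0.018 without repetition 2 and 0.0997 without repetition 3.

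TGFA, the ligand released in the hair follicle route of LIPH and LPAR6, was named after its values were seen. It gave 7.78, 7.75 and 7.39 in CD133-positive cells, against 7.18, 7.31 and 7.28 in CD133-negative cells, a difference of 0.38 (limma adjusted p = 0.293). The protease gene ADAM17 had a difference of 0.024 (95% interval -0.25 to 0.30) and the receptor gene EGFR one of 0.10 (95% interval -0.09 to 0.29).

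**Figure D4:**
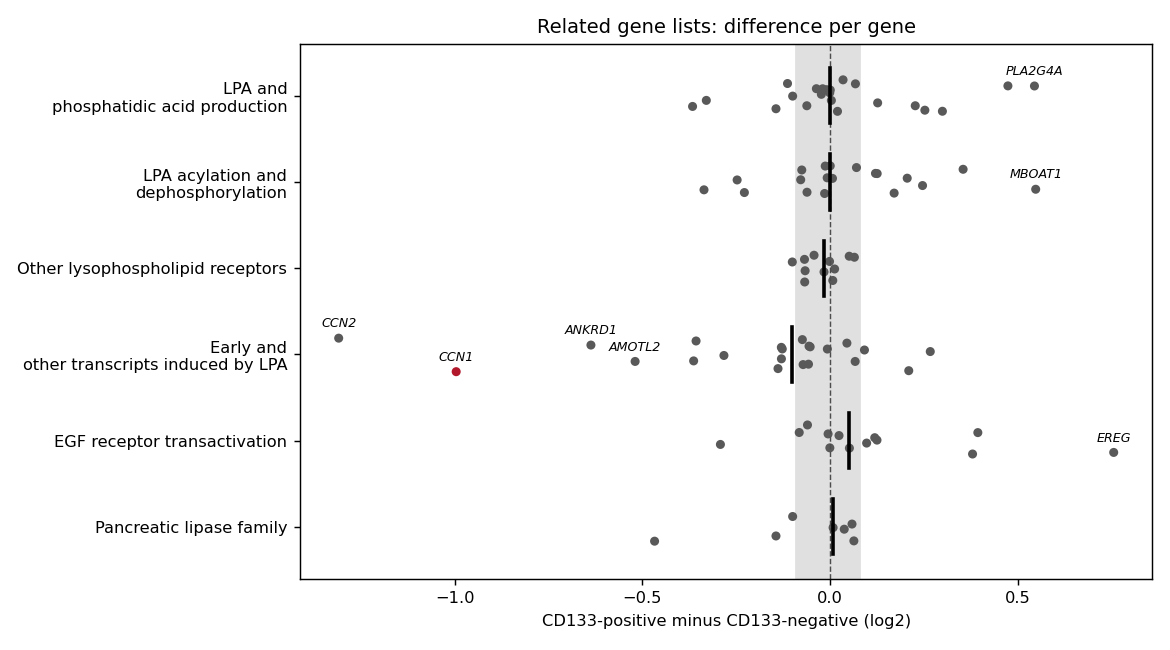
Difference in log2 RMA signal, CD133-positive minus CD133-negative (horizontal axis), for each measured gene of the 6 related lists. Each point is a gene, the red point (CCN1) is past the threshold, black bars are list medians and the grey band spans the middle 50% of all genes. Genes beyond 0.5 in either direction are named, and list medians lie between -0.10 and 0.05.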

How the data were processed

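Total RNA of the 2 sorted fractions was labelled with biotin through a whole-transcript kit, per the labels' protocols. The deposited values are log2 signals that the authors made with RMA (background correction, normalization between arrays, probe-set summary), per the labels' design text; no version was given in the sources used here, and the log2 scale was read from values of 1.09 to 13.7. That text names a U133 array, but the row identifiers match a Human Gene ST annotation, which was used. RMA pulls dim signals together, which can shrink differences.

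Of 32321 rows, 4091 that precede the first annotated identifier were left out as controls. The other 28230 were fitted with limma 3.58.1 (R 4.3.3; lmFit, eBayes), fraction plus repetition, with Benjamini-Hochberg adjustment at 0.05. Each gene took its probe set of highest mean, and each measured member had 1. Same-numbered arrays deviated together (correlations 0.447 to 0.616 across probe sets; bound 0.1), which pairs them by the data, since the labels name no shared culture. The number of arrays limits the precision.

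The members, lists and tests were chosen with earlier results of these data known. The rule for named genes took all members and PROM1, in each list the genes past the threshold or else the 2 with the smallest unadjusted p, and the 8 genes most and 4 least correlated with LIPH; 1 further list is not reported here. Alternatives were the fit without the block, control rows included, filters on dim probe sets, repeated quantile normalization, median centring, a trended robust prior, array weights, mean of probe sets and leaving out each repetition. Promoters came from RefSeq (GRCh38.p14).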

Additional observations from a re-analysis of the deposited data

How the results depend on the processing

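With group as the only term (no replicate block), 1 probe set passed limma's threshold, against 84 with the block (974 against 3202 at an unadjusted p under 0.05). LIPH kept its difference of 0.98 (adjusted p = 0.968) and PROM1 its 2.77 (0.142), and 0 members and 0 listed genes passed (1 and 10 unadjusted). With the leading control rows included, 0 probe sets passed (3051 unadjusted), LIPH stayed at 0.98 and PROM1 at 2.77 (0.109 for both), and 0 members, 0 member repetition effects and 0 listed genes passed (3, 1 and 22 unadjusted). Listed genes past the threshold were 6 with the filter above the median and 6 with the filter at a mean of 6, where 403 and 464 probe sets passed. They were 6 with a trended robust prior (389 probe sets) and 7 with the mean of probe sets. CCN1, GPAT3, MBOAT1, AMOTL2 and EREG passed in all 4 of these settings, and CCN2 in all but the trended robust prior. PLA2G4A passed with the trended robust prior and the mean of probe sets, and both filters removed it before testing. Without repetition 1 the 1 listed gene past the threshold was CCN2, not CCN1. Over 12 alternatives the list median of LPA and phosphatidic acid production changed sign in 6 and ran from -0.0082 to 0.051. That of the lipase family changed sign in 5 and ran from -0.47 to 0.072. The sign changed in 1 alternative each for acylation and dephosphorylation (-0.0093 to 0.064), other receptors (-0.055 to 0.024) and EGF receptor transactivation (-0.018 to 0.0997). The median of transcripts induced by LPA kept its sign and stayed between -0.12 and -0.073. Leaving out each repetition gave 0 to 43 probe sets, a LIPH difference of 0.94 to 1.00, a PROM1 difference of 2.60 to 3.01 (adjusted p = 0.0980 without repetition 3), 0 to 1 members, 0 to 1 member repetition effects and 0 to 1 listed genes; in a blocked fit an array without its partner carries nothing, so both were left out. The PLPP1 difference ran from -0.15 to 0.089, turning positive without repetition 2. The cause of these changes was not tested. The differences of the other 7 members beside LIPH and PLPP1 kept their sign in every alternative that measured them. The fit without the block, the control rows and the trended robust prior cannot change a difference or a list median. For the members, each with 1 probe set, the filters and the mean of probe sets cannot either. Signs were open to change only in the other alternatives. ENPP2, LPAR6 and PLPP1 fell below both filters on dim probe sets. With 3 arrays a fraction, a difference of 0.21 (LPAR3) did not pass the adjustment.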
